A study of Mus musculus with 20 samples.

Results

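TRBV31, known in the older nomenclature as Vβ14, is the V gene of the mouse T-cell receptor β (TCRβ) locus that lies beyond the constant genes and points the other way. Its members here were the in-frame TCRβ clones, those whose CDR3 held no frameshift and no stop, whose first listed V gene was TRBV31. There were 6897 such clones among 258892 in-frame clones of 17 mice, and TRBV31 was 1 of 25 TRBV genes with an in-frame clone. Clones of a mouse that shared the V gene, the J gene and the CDR3 amino acids were merged into a clonotype, which left 6774 TRBV31 clonotypes among 250159, or 6199 distinct TRBV31 sequences among 213578 over all mice.

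The study sequenced the TCRα and TCRβ transcripts of CD8 T cells to ask how proteasomes with different catalytic subunits shape the CD8 repertoire. The cells were sorted as CD4-CD8+ TCRβ-high from male mice of 9 to 12 weeks, 1000000 cells a mouse. The tissue label names lymph nodes, and the protocol names lymph nodes and spleens. The mice fell into 4 groups, namely 4 WT mice, 5 mice labelled β5i-KO, 4 labelled β5t-KO and 4 labelled BIT, and no treatment was named. β5i is the immunoproteasome subunit encoded by Psmb8, and β5t is the thymoproteasome subunit encoded by Psmb11, normally made in cortical thymic epithelial cells. The knockout mice were deficient in the named subunit. In BIT mice, made on C57BL/6, the Psmb11 sequence was placed in the Psmb8 gene so that β5t is made instead of β5i, and of several such lines the study mostly used 1. Psmb8 and Psmb11 are not read by TCR libraries, which therefore give no check of the genotypes.

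TCRβ genes are assembled in developing T cells by V(D)J recombination, in which a D segment is first joined to a J segment and a V segment is then joined to the product. The RAG recombinase cuts at recombination signals, each a heptamer and a nonamer separated by a spacer, and the ends are trimmed and extended with non-templated bases before they are joined. The CDR3 is the stretch encoded across these joins and makes most of the contact with the peptide. Most Trbv genes lie upstream of the D and J segments in the same orientation and are joined by deletion of the DNA between, whereas Trbv31 is joined by inversion.

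In the reference genome (GRCm39, annotation release 39 of GENCODE for mouse), Trbv31 occupies chr6:41534627-41535386 on the minus strand, with exons at chr6:41535263-41535386 and chr6:41534627-41534918. It was the 1 Trbv gene of 35 on the minus strand, against 34 on the plus strand. Trbc2 ended 9.341 kb before it and Trbj2-7 13.837 kb before it, while Trbj1-1 began 23.829 kb before it. The upstream group ended with Trbv30, 251.211 kb before Trbd1. The sequences below are those from which TRBV31 CDR3s are built, read from that genome. Capitals in the first line mark the heptamer and the nonamer, which follow the 14 bases of the CDR3-coding end and stand 23 bases apart. The D segments are given whole, in capitals.
Trbv31 end and recombination signal (chr6:41534588-41534640, minus strand): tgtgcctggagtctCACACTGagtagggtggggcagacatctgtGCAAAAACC
Trbd1 (chr6:41510135-41510146, plus strand): GGGACAGGGGGC
Trbd2 (chr6:41519097-41519110, plus strand): GGGACTGGGGGGGC

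**Figure D1:**
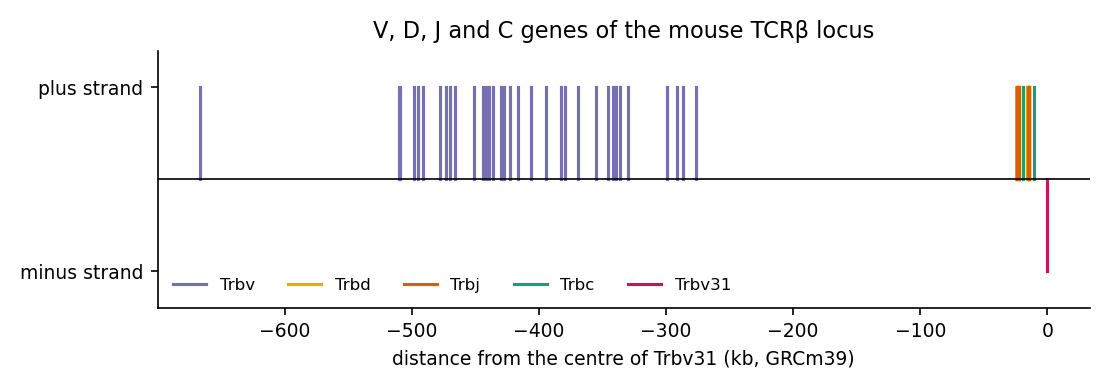
Each vertical line is an annotated V, D, J or C gene of the mouse TCRβ locus at its distance in kb from the centre of Trbv31 (x axis), drawn up for the plus strand and down for the minus strand (y axis). Trbv31 is the V gene drawn down, and 34 Trbv genes are drawn up on the left.

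The germline end encodes the residues CAWS and the first bases of the next codon, and most TRBV31 CDR3s began with these residues. In TRBV31, 94.8% of clonotypes carried tryptophan as the residue after CA, against 0.00863% of clonotypes of the other TRBV genes. CAWS opened 71.1% of TRBV31 clonotypes and CAWR 10.98%. By mouse, the CAWS share was 70.5% ± 3.93 (SD, n = 17). With the next residue read as well, CAWSL opened 37.6% and CAWSP 14.1%.

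TCRβ libraries held 614169 to 2856711 reads and 8119 to 146469 unique molecules. TRBV31 clonotypes numbered from 9 in β5t-KO 2 to 984 in BIT 1, with a median of 225, and WT 1 had 24. Each mouse counted equally in the means and within-mouse tests below, these 2 small libraries included. The tests were also run without them, while the D segments, the base counts of the CDR3 and the out-of-frame clones by J cluster and size were not. Within each group, 0 of 32 pairs of libraries were identical. The invariant NKT chain (TRAV11 or TRAV11D with TRAJ18) made up at most 0.0289% of TCRα molecules and the MAIT chain (TRAV1 with TRAJ33) at most 0.176%, the latter in β5t-KO 2, as a check for unconventional T cells in the sort.

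TRBV31 was a gene of modest and even use. It took 2.67% ± 0.303 (SD, n = 17) of a mouse's in-frame clonotypes and ranked 15th among the 23 TRBV genes common enough to be tested. In WT mice its share of clonotypes was 2.61%, 2.53%, 2.94% and 2.98%. In β5i-KO mice it was 2.54%, 2.62%, 2.39%, 2.26% and 2.87%. In β5t-KO mice it was 3.27%, 2.34%, 2.72% and 2.05%. In BIT mice it was 2.85%, 2.73%, 2.93% and 2.83%. The groups overlapped, and β5t-KO held both the highest and the lowest mouse. The gene just above it in mean usage was TRBV12-2 at 3.25% ± 1.46 and the gene just below was TRBV20 at 2.64% ± 0.663 (SD, n = 17), so neither neighbour differed from TRBV31 by more than its own spread. Counted in unique molecules the TRBV31 share was 3.28% ± 0.467, and in reads 2.85% ± 0.316 (SD, n = 17).

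**Figure D2:**
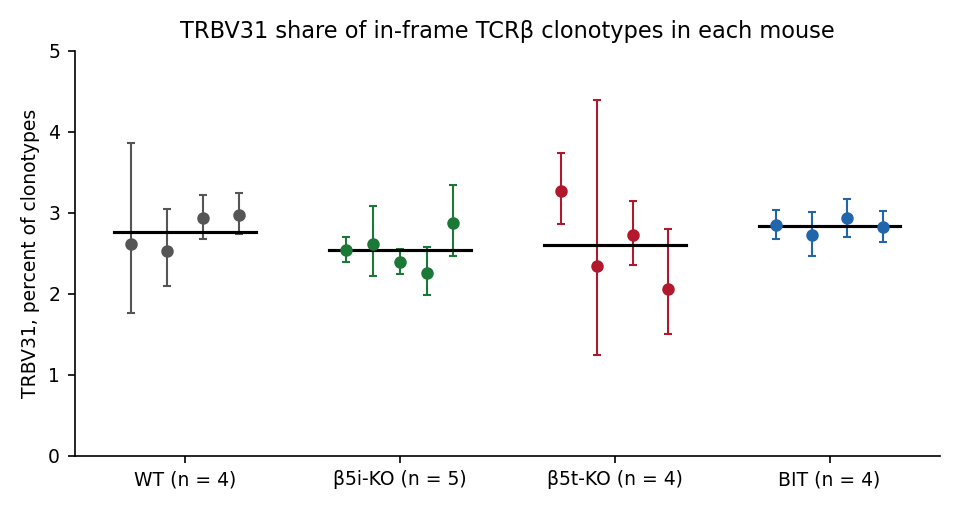
TRBV31 share of in-frame TCRβ clonotypes (y axis, percent) in each mouse, by genotype (x axis); bars are 95% Wilson intervals, which cover counting error only, and black lines are group means. All 17 mice lie between 2.05% and 3.27%, and the groups overlap.

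No genotype moved TRBV31 usage past the threshold. edgeR's quasi-likelihood test on clonotypes per TRBV gene gave a log2 fold change of -0.14 (SE 0.13, adjusted p = 0.889) for β5i-KO minus WT and of -0.06 (SE 0.14, adjusted p = 0.972) for β5t-KO minus WT. The log2 fold change was 0.03 (SE 0.13, adjusted p = 0.927) for BIT minus WT, 0.16 (SE 0.12, adjusted p = 0.995) for BIT minus β5i-KO and 0.09 (SE 0.14, adjusted p = 0.998) for BIT minus β5t-KO. In each of these 5 comparisons 0 of 23 TRBV genes passed (0% called in each direction), with 1, 2, 0, 0 and 2 at an unadjusted p under 0.05 in that order. DESeq2 called 1 of 23 in β5t-KO minus WT, not TRBV31, and 0 in the others. The signs of the β5t-KO minus WT, BIT minus WT and BIT minus β5t-KO values changed under other settings, so no direction is given for them.

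Over the mice, the genes whose usage moved most like that of TRBV31 (Pearson r of log2 usage, n = 17 mice, values that share each library's depth and total) were TRBV21 (r = 0.553), TRBV23 (r = 0.544) and TRBV12-1 (r = 0.495). TRBV21 was rare, at 0.0252% of clonotypes.

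TRBV31 was joined to TRBJ2 genes less often than the other TRBV genes of the same mouse were. The J segments form a TRBJ1 and a TRBJ2 cluster, each behind its own D segment, and the TRBJ2 cluster lies nearer to Trbv31. In WT mice the TRBJ2 share of TRBV31 clonotypes was 75.0%, 69.2%, 65.2% and 65.8%, against 70.4%, 70.1%, 70.6% and 73.9% for other TRBV. In β5i-KO mice it was 62.8%, 60%, 60.9%, 63.1% and 60.6%, against 68.9%, 66.5%, 69.8%, 72.0% and 66.6%. In β5t-KO mice it was 59.4%, 55.6%, 64.2% and 59.0%, against 71.5%, 72.5%, 72.0% and 73.7%. In BIT mice it was 62.6%, 63.5%, 66.8% and 68.5%, against 70.3%, 70.1%, 75.0% and 72.5%. The share was lower for TRBV31 in 16 of 17 mice, the exception being WT 1 with its 24 TRBV31 clonotypes. The mean was 63.7% ± 4.59 for TRBV31 and 71.0% ± 2.33 for other TRBV (SD, n = 17), a mean difference of -7.31 percentage points (SD 4.87; two-sided sign-flip permutation test over mice, adjusted p = 8.17e-05 over 7 measures). Among genes with at least 30 clonotypes in a mouse, TRBV31 had the lowest TRBJ2 share in 3 of 15 mice. With the clonotypes of all mice pooled, TRBV21 (55.6%), TRBV19 (61.9%) and TRBV29 (63.4%) had lower TRBJ2 shares than TRBV31 (63.9%).

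**Figure D3:**
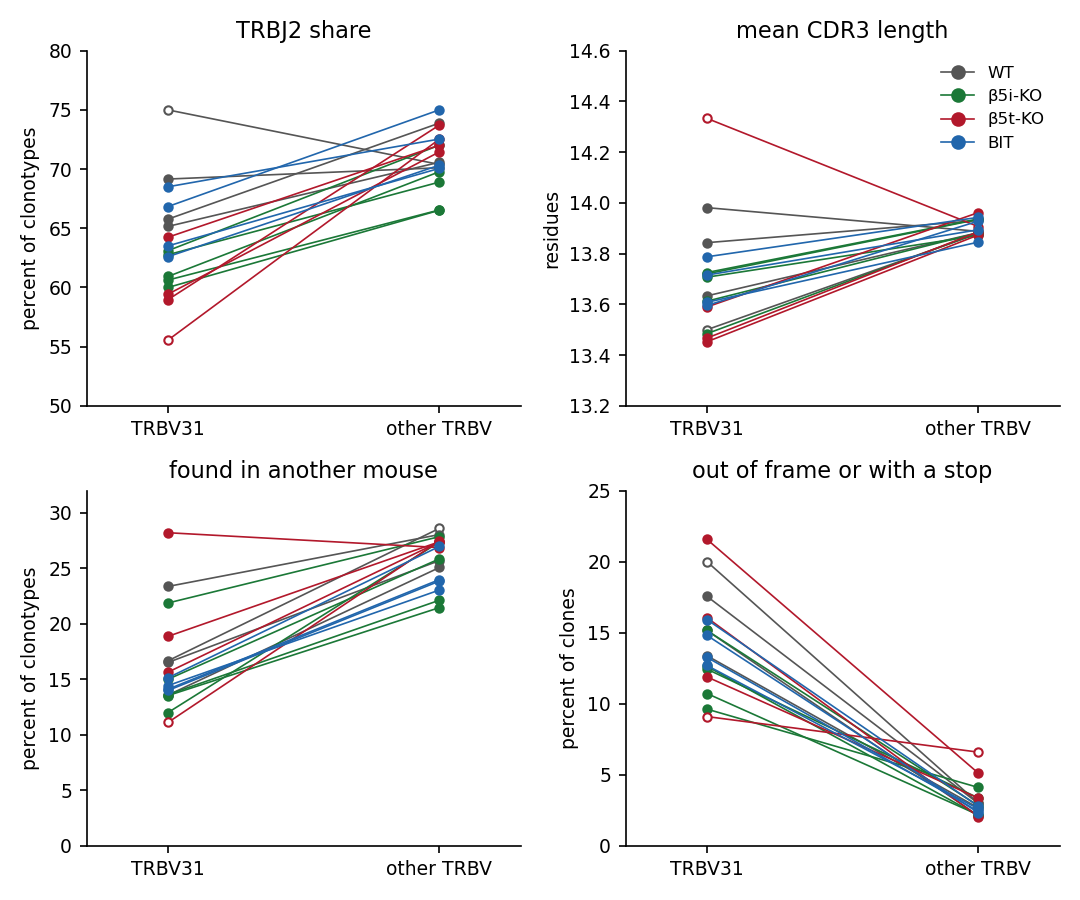
Each line joins TRBV31 and all other TRBV (x axis) of a mouse, for the TRBJ2 share, the mean CDR3 length, the share of clonotypes found in another mouse and the share of clones out of frame or with a stop (y axes, with units, the upper axes not starting at 0); colours are genotypes and open points the 2 libraries with fewer than 30 TRBV31 clonotypes. TRBV31 is lower in 16, 15 and 16 of 17 mice in the first 3 panels and higher in 17 of 17 in the last.

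Within the TRBJ2 cluster, 2 genes at the end nearest to Trbv31 were low. TRBJ2-5 took 7.80% ± 1.89 of TRBV31 clonotypes and 11.5% ± 0.751 of the others (SD, n = 17), lower in 17 of 17 mice (sign-flip permutation test, adjusted p = 2.40e-04 over 12 TRBJ genes). TRBJ2-7, the nearest of all, took 17.5% ± 6.04 against 22.5% ± 1.18, lower in 16 of 17 (permutation test, adjusted p = 0.0227). These were the 2 genes called lower (16.7% of the 12). TRBJ1-1, the farthest, took 14.3% ± 8.44 against 9.88% ± 1.07, higher in 14 of 17 (permutation test, adjusted p = 0.0161), and was the 1 gene called higher (8.33% of the 12).

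The mean for TRBJ1-1 was raised by β5t-KO 2, where it stood at 44.4% of 9 clonotypes. Without the 2 small libraries TRBJ1-1 stood at 12.7% against 10.0%, and 5 genes were called higher: TRBJ1-1, TRBJ1-2, TRBJ1-3, TRBJ1-5 and TRBJ2-1 (exact sign-flip permutation test, adjusted p from 4.88e-04 to 0.0243, n = 15). TRBJ2-5 and TRBJ2-7 were again the genes called lower, each in 15 of 15 mice (exact permutation test, adjusted p = 3.66e-04). In those 15 mice TRBJ1-2 stood at 7.59% against 5.51%, TRBJ1-3 at 4.88% against 3.42%, TRBJ1-5 at 3.09% against 2.20% and TRBJ2-1 at 15.02% against 13.7%. TRBJ1-4, TRBJ2-2, TRBJ2-3 and TRBJ2-4 passed neither with all mice nor without the 2 small libraries, and neither did TRBJ1-6. TRBV31 thus differed from the other genes unevenly along the TRBJ2 cluster, and TRBJ2-1, at its far end, was not among the genes called lower.

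**Figure D4:**
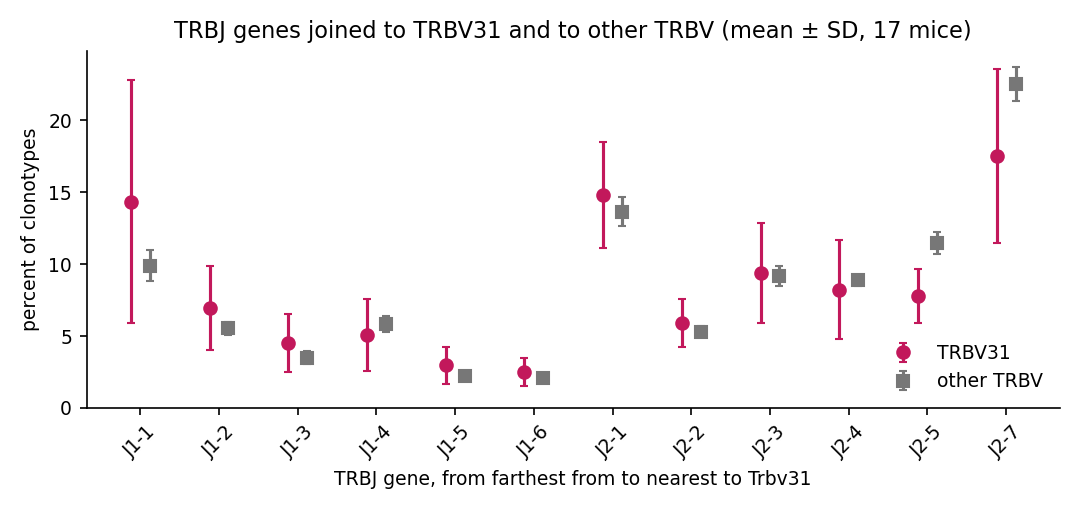
Share of clonotypes (y axis, percent) that carried each TRBJ gene (x axis, farthest from to nearest to Trbv31), for TRBV31 (circles) and other TRBV (squares); points are means and bars SDs over 17 mice. TRBV31 lies below the others at TRBJ2-5 and TRBJ2-7 and above them at TRBJ1-1.

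D segments were read from the clone tables, in which a D call rests on few bases. Among TRBJ2 joins, 83.2% ± 2.79 of TRBV31 clones had a D segment assigned against 78.8% ± 0.903 of other clones. TRBD2, which lies between the J clusters, made up 68.5% ± 6.18 of the assigned D segments in TRBV31 and 57.7% ± 1.75 in other TRBV (SD, n = 17), higher in 16 of 17 mice. Among TRBJ1 joins, whose J segments lie upstream of Trbd2, it made up 9.91% ± 4.60 and 8.03% ± 1.33 of the assigned segments. No test was fixed for D segments, and these values are a description.

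The V end of TRBV31 was trimmed less than that of other TRBV. The tables place the germline end of TRBV31 at 13 bases into the CDR3, 1 base before the heptamer in the reference, and TRBV31 was the only 1 of 22 TRBV genes compared where a base was missing. Of the TRBV31 clones that the tables call untrimmed, 69.7% carried the missing base. In the genes with no base missing, the next genomic base followed in 0.0719% (TRBV19) to 63.9% (TRBV17) of such clones. As tabulated, V-end trimming was 1.15 ± 0.139 bases in TRBV31 and 2.69 ± 0.111 in other TRBV (SD, n = 17; permutation test, adjusted p = 3.50e-05). With the V end matched to the germline up to the heptamer, trimming was 2.04 ± 0.308 bases against 2.90 ± 0.143, so the difference shrank from -1.54 to -0.863 bases and stayed lower in 17 of 17 mice (permutation test, adjusted p = 3.50e-05). By this match 36.9% ± 8.23 of TRBV31 clones kept the whole V end, against 20.3% ± 1.76 of others. Of 22 genes with such a match, 4 were trimmed less than TRBV31.

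More bases were added in TRBV31 joins. Counted were the bases between V and J that no assigned segment covers. Where no D segment was assigned, the whole stretch was counted, which can include D bases. They numbered 3.51 ± 0.142 as tabulated, against 2.95 ± 0.0855 in other TRBV (SD, n = 17), a difference of 0.569 bases, higher in 17 of 17 mice (permutation test, adjusted p = 3.50e-05). With the V end matched to the germline the values were 3.70 ± 0.224 and 3.43 ± 0.0994, and the difference fell to 0.275 bases (permutation test, adjusted p = 4.20e-05), higher in 16 of 17. Of the 22 genes so matched, 3 had more added bases than TRBV31, with the clones of all mice pooled.

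Even so, TRBV31 CDR3s were slightly shorter. The mean length was 13.69 ± 0.217 residues in TRBV31 and 13.90 ± 0.0319 in other TRBV (SD, n = 17), a difference of -0.210 residues (SD 0.212; permutation test, adjusted p = 0.00223). In WT mice the mean TRBV31 length was 13.50, 13.98, 13.63 and 13.84 residues. In β5i-KO mice it was 13.72, 13.71, 13.73, 13.48 and 13.61. In β5t-KO mice it was 13.47, 14.33, 13.45 and 13.59, and in BIT mice 13.72, 13.61, 13.79 and 13.60. TRBV31 was the shorter in 15 of 17 mice, and the exceptions were WT 2 and β5t-KO 2. CDR3s of at most 11 residues made up 8.24% ± 2.71 of TRBV31 clonotypes and 6.05% ± 0.332 of others.

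In bases, the V part of TRBV31 CDR3s was the short one. The tables gave 12.1 ± 0.186 V-encoded bases against 13.98 ± 0.0870 in other TRBV, 10.2 ± 0.521 against 9.22 ± 0.140 between V and J, and 18.7 ± 0.402 against 18.5 ± 0.0582 J-encoded bases (SD, n = 17). These values use the tabulated V end, which is 1 base short for TRBV31. Matched to the germline, the V part held 11.96 ± 0.306 bases against 13.50 ± 0.101. The germline V end itself has 14 bases in TRBV31 and 14 to 17 in the other genes compared. With other TRBV reweighted to the J usage of TRBV31, the length difference was -0.215 residues. Among the 23 genes 5 had shorter CDR3s than TRBV31 (13.69 residues over all mice): TRBV30 (13.06), TRBV20 (13.10), TRBV29 (13.50), TRBV13-3 (13.66) and TRBV14 (13.67).

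TRBV31 clonotypes were shared between mice less often than those of other TRBV. A clonotype was counted as shared when the same V gene, J gene and CDR3 amino acids occurred in at least 1 other of the 17 mice. In WT mice 16.7%, 23.4%, 16.5% and 13.6% of TRBV31 clonotypes were shared, against 28.6%, 28.0%, 25.7% and 25.1% of other clonotypes. In β5i-KO mice it was 13.5%, 15%, 13.6%, 12.0% and 21.9%, against 21.5%, 25.9%, 22.1%, 27.4% and 27.9%. In β5t-KO mice it was 18.9%, 11.1%, 15.6% and 28.2%, against 27.4%, 27.5%, 27.4% and 26.9%. In BIT mice it was 14.4%, 15.1%, 13.99% and 14.1%, against 23.04%, 27.0%, 23.8% and 24.0%. TRBV31 was lower in 16 of 17 mice, and the exception, β5t-KO 4, had 39 TRBV31 clonotypes.

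The mean shared fraction was 16.3% ± 4.43 for TRBV31 and 25.8% ± 2.20 for other TRBV (SD, n = 17), a difference of -9.49 percentage points (SD 4.05; permutation test, adjusted p = 4.20e-05). The test treats the 17 mice as independent, but each mouse's sharing is computed from the other mice. The size of the gap between TRBV31 and other TRBV depended on the definition. Libraries thinned to 7669 molecules gave 8.88% against 14.4%, sharing by CDR3 nucleotides gave 5.15% against 9.57%, and presence in at least 3 other mice gave 3.66% against 7.54%, with TRBV31 lower and past the threshold each time. Reweighting other TRBV to the CDR3 lengths of TRBV31 gave a difference of -10.4 points.

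Across genes, sharing followed usage. Of the 8 tested genes used less than TRBV31, 7 had a lower shared fraction, and all 14 used more had a higher one. The genes just below it in usage, TRBV20 (18.02%) and TRBV14 (14.5%), stood on either side of TRBV31 (14.7%, clonotypes of all mice together). TRBV31 was in no mouse the gene with the lowest sharing, over the 15 mice in which it had at least 30 clonotypes.

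**Figure D5:**
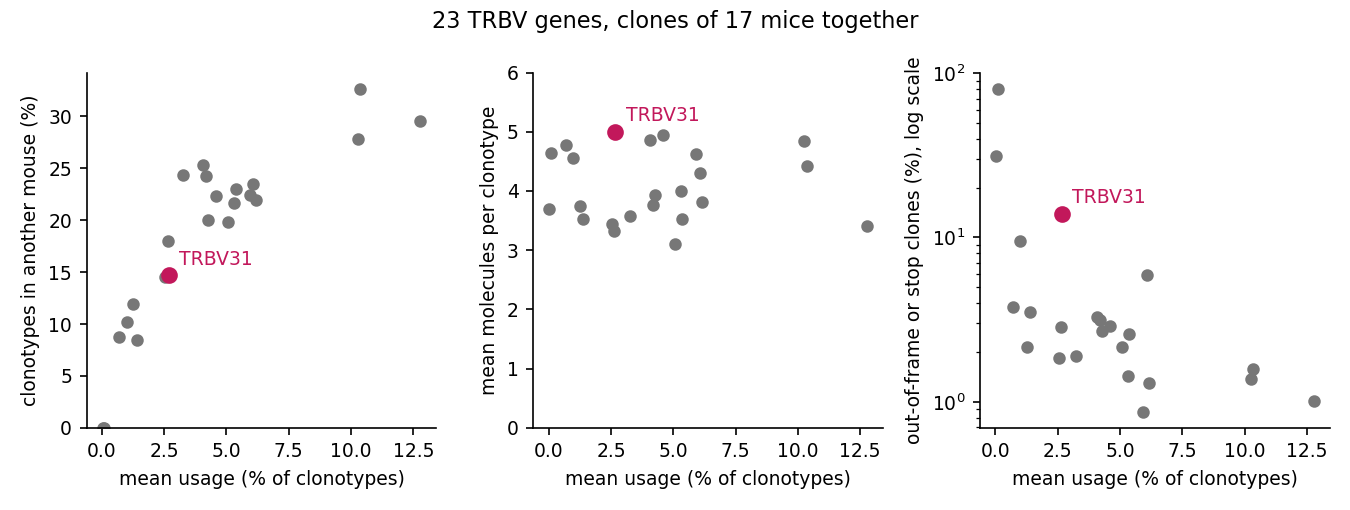
Each point is 1 of 23 TRBV genes, plotted by mean usage (x axis, percent of clonotypes) against the share of clonotypes found in another mouse, the mean molecules per clonotype and the share of clones out of frame or with a stop (y axes, the last on a log scale), from the clones of all 17 mice. TRBV31 lies among genes of like usage at 14.7% in the first panel, at 5.00 molecules in the second, a pooled value, and below TRBV24 and TRBV21 at 13.9% in the last.

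TRBV31 sequences found in over 1 mouse were on average shorter, with fewer added bases, than those found in 1. Of 6199 distinct sequences 422 occurred in over 1 mouse, 15 in at least 5 and 5 in at least 6. The 422 averaged 13.3 residues (SD 1.35) and 2.68 added bases, against 13.8 residues (SD 1.58) and 3.76 added bases in the 5777 found in 1 mouse. CAWSL opened 57.3% of the shared and 33.7% of the private sequences. The 5 most widespread are shown by the nucleotide form found in the most mice, with the bases that match the germline V end in capitals. The forms shown carry the whole germline end of 14 bases, and were found in 6 of 10, 4 of 8, 2 of 8, 3 of 8 and 3 of 6 mice in the order given. The residues run from 10 to 14.
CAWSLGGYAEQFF, TRBJ2-1: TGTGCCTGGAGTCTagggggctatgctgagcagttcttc
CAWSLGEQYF, TRBJ2-7: TGTGCCTGGAGTCTgggtgaacagtacttc
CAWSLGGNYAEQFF, TRBJ2-1: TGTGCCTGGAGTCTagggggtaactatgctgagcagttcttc
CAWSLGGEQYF, TRBJ2-7: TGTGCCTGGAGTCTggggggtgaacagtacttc
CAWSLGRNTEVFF, TRBJ1-1: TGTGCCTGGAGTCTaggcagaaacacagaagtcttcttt

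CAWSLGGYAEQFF was found in 10 mice, in every genotype, namely 3 BIT, 3 β5t-KO, 3 β5i-KO and 1 WT mouse. Its level, in CPM, the reads per 1000000 in-frame TCRβ reads, was 155 in WT 3. It was 60.6, 57.0 and 107 in β5i-KO 1, 3 and 4, the last from 1 molecule. It was 174, 229 and 864 in β5t-KO 1, 3 and 4, and 35.2, 57.9 and 61.4 in BIT 1, 4 and 5. The 10 mice reached it through 4 nucleotide forms, the commonest of them in 6 mice.

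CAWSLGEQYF was found in 8 mice through 8 nucleotide forms. It stood at 218 CPM in WT 4, at 86.4 and 41.4 CPM in β5i-KO 1 and 3, at 297, 535 and 1258 CPM in β5t-KO 1, 3 and 4, and at 118 and 27.8 CPM in BIT 1 and 5. By CPM these 3 β5t-KO mice were the highest. In molecules, which are not scaled for depth, WT 4 held 46 against 12, 12 and 33 in the β5t-KO mice. The whole library of WT 4 held 126936 molecules, against 45127, 28386 and 35609 in these β5t-KO mice. The fourth β5t-KO mouse, with 9 TRBV31 clonotypes, had none. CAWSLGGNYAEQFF was found in 8 mice through 7 forms, in 2 BIT, 0 β5t-KO, 4 β5i-KO and 2 WT mice, and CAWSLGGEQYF in 8 mice through 5 forms, in 2, 1, 3 and 2 in the same order. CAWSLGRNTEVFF was found in 6 mice, in 3, 0, 2 and 1. The next 5 (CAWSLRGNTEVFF, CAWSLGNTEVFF, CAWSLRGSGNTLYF, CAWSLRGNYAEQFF and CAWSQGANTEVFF) were each found in 5 mice.

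The most abundant TRBV31 sequence of each genotype by mean CPM was instead private to a mouse. These sequences had shorter matches to the V end in 3 of 4 genotypes, and are shown for that contrast, with the matching bases in capitals.
WT, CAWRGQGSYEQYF, TRBJ2-7: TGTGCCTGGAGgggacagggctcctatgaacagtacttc
β5i-KO, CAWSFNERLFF, TRBJ1-4: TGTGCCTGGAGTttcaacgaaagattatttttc
β5t-KO, a CDR3 of 17 residues, TRBJ2-2: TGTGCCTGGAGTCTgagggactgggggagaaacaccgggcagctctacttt
BIT, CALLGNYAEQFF, TRBJ2-1: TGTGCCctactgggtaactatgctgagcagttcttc

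Each of these 4 was found in 1 mouse, with 24, 71, 29 and 147 molecules. Those of WT and β5t-KO came from WT 1 and β5t-KO 2, the 2 small libraries. By molecules both libraries had a larger TRBV31 clonotype, with 58 in WT 1 and 84 in β5t-KO 2. In β5t-KO 2, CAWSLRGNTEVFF, found in 5 mice, held 84 molecules. The BIT sequence, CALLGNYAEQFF, was the largest clonotype of its whole library, at 0.103% of the molecules of BIT 1, and lacked the tryptophan, with 6 germline V bases. In the other mice the largest TRBV31 clonotype ranked from 2nd in WT 1 to 156th in BIT 5 among all clonotypes.

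The recurring TRBV31 sequences were also tested for differences in reads between genotypes. A sequence counted as recurring at 10 CPM or more in at least 3 mice of a group. TRBV31 supplied 15 of 1376, among them 0 of 60 in WT, 6 of 658 in β5i-KO, 2 of 22 in β5t-KO and 9 of 851 in BIT. These were 0%, 0.912%, 9.09% and 1.06% of recurring sequences in that order, against 2.95%, 2.56%, 2.86% and 2.94% of all distinct sequences. Depth differed between these groups, and β5t-KO libraries held 8119 to 45127 molecules against 41405 to 146469 in BIT. Its part in these totals was not tested. edgeR's quasi-likelihood test called 0 of the 15, and 0 of the 1376 (0% called in each direction), in each of the 5 comparisons. At an unadjusted p under 0.05 the counts of TRBV31 sequences higher were 3 for β5i-KO minus WT, 2 for β5t-KO minus WT, 7 for BIT minus WT, 2 for BIT minus β5i-KO and 8 for BIT minus β5t-KO, and the counts lower were 0, 4, 1, 1 and 0. Nothing is read from these directions, since no TRBV31 sequence entered the test through WT, and a sequence that entered through the group where it is high leans that way. Over all sequences 533, 558, 567, 338 and 816 reached that unadjusted threshold. DESeq2 called 3, 5, 4, 1 and 7 TRBV31 sequences, and 205, 455, 194, 87 and 647 of all, in the same order. Since the tools differ so widely on counts that are mostly 0, no TRBV31 sequence is named as changed.

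TRBV31 clonotypes held more molecules than others did. The mean per clonotype was higher in TRBV31 in 17 of 17 mice, by 0.30 on the log2 scale (SD 0.15; permutation test, adjusted p = 3.50e-05). TRBV31 clonotypes averaged 3.93 molecules ± 0.859 in BIT, 17.96 ± 13.5 in β5t-KO, 4.87 ± 2.75 in β5i-KO and 8.32 ± 1.68 in WT (SD). Other TRBV averaged 3.25 ± 0.594, 12.2 ± 7.85, 4.12 ± 2.22 and 6.98 ± 1.55 in the same order, so the groups ranked alike for both. Within β5t-KO the TRBV31 values ran from 5.31 to 34.2. The libraries held 9.68 to 184 reads per molecule. With the clonotypes of all mice pooled, TRBV31 stood at 5.00 molecules per clonotype and TRBV13-1 at 4.94, the highest values of the 23 genes, but a pooled value depends on which mice supply a gene's clonotypes. Within a mouse, TRBV31 was the highest gene in 0 of 15 mice. In bulk RNA more cells of a clone and more TCRβ transcript per cell cannot be told apart, and neither was measured separately here.

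TRBV31 also had more clones that cannot make a receptor. Such clones, out of frame or with a stop in the CDR3, were left out of the members above. They made up 14.2% ± 3.37 of TRBV31 clones and 3.09% ± 1.20 of other TRBV clones (SD, n = 17), a difference of 11.1 percentage points, higher in 17 of 17 mice (permutation test, adjusted p = 3.50e-05). In WT mice the TRBV31 share was 20%, 17.6%, 15.2% and 13.4%. In β5i-KO mice it was 15.2%, 9.62%, 12.6%, 10.7% and 12.4%. In β5t-KO mice it was 11.9%, 9.09%, 16.1% and 21.6%, the second of these from 1 clone of 11, and in BIT mice it was 14.8%, 15.9%, 12.7% and 13.3%. The highest value for other TRBV in any mouse was 6.59%, in β5t-KO 2, below all 17 TRBV31 values.

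With the clones of all mice together, and clones of a mouse with the same V gene, J gene and CDR3 nucleotides counted once, 1115 of 8010 TRBV31 clones (13.9%) and 6593 of 258500 other clones (2.55%) were of this kind, so TRBV31 supplied 14.5% of all out-of-frame or stop clones. Only TRBV24 (80.4%) and TRBV21 (31.4%), the least used of the 23 genes, had higher shares, and TRBV5 (9.57%) and TRBV4 (5.95%) came next. Within a mouse, among genes with at least 30 clones there, TRBV31 had the highest share in 4 of 16 mice. The annotation lists Trbv24 as a pseudogene. Of the 1115 clones, 98.3% carried a frameshift. None of their nucleotide sequences occurred in over 1 mouse, and 3 of 6590 did among other TRBV.

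Out-of-frame and in-frame clones were also compared by J cluster and size, with no test. The out-of-frame TRBV31 clones carried TRBJ2 in 60.99% of cases against 63.9% in frame, whereas in other TRBV the values were 75.9% and 71.2%. They held 3.59 molecules on average, against 4.91 for in-frame TRBV31 clones. Their share fell with the number of molecules required, from 12.1% at 2 or more to 11.2% at 3, 9.34% at 5 and 6.68% at 10 or more, and for other TRBV from 2.15% to 2.06%, 1.97% and 1.92%. They took 10.6% of TRBV31 molecules, against 2.17% in other TRBV.

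Between genotypes, none of the TRBV31 features tested passed the threshold. Exact two-sided permutation tests were run on the TRBJ2 share, CDR3 length and sharing of TRBV31, and on the within-mouse difference of each from other TRBV, in the 5 comparisons. Of these 30 tests 3 had an unadjusted p under 0.05 and 0 an adjusted p under 0.05, with a lowest adjusted p of 0.238. The smallest p that 4 mice against 4 allow is 0.0286, and 5 against 4 allow 0.00794. Adjusted over the 30 tests, a lone difference at the exact permutation p of 0.00794 stands at 0.238. No isolated difference could therefore pass, so the lack of calls does not show that the genotypes are alike. The 3 concerned the TRBJ2 share of TRBV31, which averaged 65.4% ± 2.78 in BIT, 59.6% ± 3.58 in β5t-KO, 61.5% ± 1.37 in β5i-KO and 68.8% ± 4.51 in WT (SD). β5i-KO minus WT was -7.29 points (exact permutation p = 0.00794, adjusted 0.238), with no overlap between the groups. β5t-KO minus WT was -9.22 points (exact p = 0.0286, adjusted 0.317), also with no overlap. BIT minus β5i-KO was 3.88 points (exact p = 0.0317, adjusted 0.317).

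The other TRBV genes of the same mice had a mean TRBJ2 share of 71.99% ± 2.30 in BIT, 72.4% ± 0.965 in β5t-KO, 68.8% ± 2.32 in β5i-KO and 71.2% ± 1.77 in WT (SD). Within each mouse, TRBV31 minus other TRBV averaged -6.62 points in BIT, -12.9 in β5t-KO, -7.27 in β5i-KO and -2.47 in WT, and the unadjusted exact permutation p was 0.0873 for β5i-KO against WT and 0.0571 for β5t-KO against WT. For BIT minus β5i-KO the within-mouse value was 0.648 points (exact permutation p = 0.571). WT 1, at 75.0% of 24 clonotypes, was the mouse in which TRBV31 stood above the other genes. By single J gene, 0 of 12 TRBV31 V-J pairs passed edgeR's quasi-likelihood test in any comparison, as did 0 of all 248 pairs (0% called in each direction). At an unadjusted p under 0.05 there were 2 TRBV31 pairs in β5i-KO minus WT, both lower (15 of all pairs), 1 in BIT minus β5i-KO, higher (6 of all), and 0 in the others (9, 0 and 12 of all), and DESeq2 called 0 of the 248 pairs. With the replicate number as a block 6 of the 248 were called in BIT minus β5t-KO, none of them TRBV31 pairs. The lower pairs were TRBV31 with TRBJ2-7, at a log2 fold change of -0.50 (SE 0.21, adjusted p = 0.766), and with TRBJ2-3, at -0.52 (SE 0.24, adjusted p = 0.766).

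CDR3 length and sharing gave no such values. TRBV31 length averaged 13.68 ± 0.0914 residues in BIT, 13.71 ± 0.420 in β5t-KO, 13.65 ± 0.103 in β5i-KO and 13.74 ± 0.214 in WT. Sharing averaged 14.4% ± 0.516, 18.5% ± 7.24, 15.2% ± 3.88 and 17.5% ± 4.14 in the same order. The out-of-frame share averaged 14.2% ± 1.47, 14.65% ± 5.43, 12.1% ± 2.11 and 16.5% ± 2.88 and was not tested between genotypes. Trimming, added bases and molecules per clonotype were not tested between genotypes either.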

How the data were processed

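Per the labels and the methods of the study, RNA was amplified from template-switched cDNA with a mouse TCR α/β profiling kit carrying molecular identifiers, and clones were assembled with MiXCR (version not given in the sources used here; build named: mm10). The authors deposited, per library and chain, raw read counts and unique molecule counts per clone. The counts are whole numbers that were not normalized. Here clonotypes, genes and V-J pairs were counted per mouse. Genes and pairs with at least 5 clonotypes in at least 4 libraries were tested with edgeR's quasi-likelihood test, library sizes unscaled, all 4 groups in 1 fit. Recurring sequences were tested on reads in the same way. TRBV31 was compared with other TRBV within each mouse by sign-flip permutation of the mean difference (100000 resamples, all sign flips where a mouse was left out). Adjustment was by Benjamini-Hochberg at 0.05. Intervals cover counting error only. Named were TRBV31, all TRBJ and TRBD genes, neighbours in usage, the 3 most alike genes, more extreme genes, the 10 most widespread sequences and the most abundant of each genotype. Members and lists were chosen with earlier results of these data known.

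WT 5 (1 clone) and β5t-KO 5 (12 clones) held no in-frame TRBV31 clone. BIT 3 (440 clones, 17 TRBV31 clonotypes) was left out of the main comparisons and included as an alternative. Standard errors come from the quasi-likelihood F, while edgeR bounds the p of some features by a Poisson fit, so p can exceed what the error implies. Constant genes were called TRBC2 in 99.9% of clones, also with TRBJ1, and were not used. Software was R 4.3.3 with edgeR 4.0.16 and DESeq2 1.42.0, and Python 3.11.15 with NumPy 2.4.6, pandas 2.3.3, SciPy 1.17.1 and Matplotlib 3.10.9. Alternatives (normalisation, filters, tool, replicate block, libraries) stand in the closing section, and those on small libraries and on the germline-matched V end were added after seeing the data. Nothing in the labels ties mice to litters or batches, and p-values measure the spread between these mice. For sharing, the values of the mice depend on each other. Scripts were tested on simulated data.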

Additional observations from a re-analysis of the deposited data

Results flagged for a closer look

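Over 32 groups of values (8 TRBV31 measures in 4 genotypes), 2 mice stood far from the rest of their group, and chance alone would mark about 1 in 20 groups. The mean TRBV31 CDR3 length of β5t-KO 2 was 14.33 residues, against 13.45 to 13.59 in the other β5t-KO mice, and rests on 9 clonotypes. TRBV31 joins of BIT 1 held 3.66 added bases on average, against 3.53 to 3.55 in the other BIT mice.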

How the results depend on the processing

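All 7 comparisons of TRBV31 with other TRBV kept their direction and stayed past the threshold in every alternative run (molecule minimum, CDR3 nucleotides, clones listing 1 V and 1 J gene, weighting, reweighting, thinning, BIT 3 included, each mouse left out and, chosen after seeing the data, both small libraries left out and the germline-matched V end), each applied where the measure allows. Leaving out a mouse gave -8.05 to -6.70 points for the TRBJ2 share, -0.2498 to -0.197 residues for length and -10.2 to -8.50 points for sharing. The count of TRBJ genes called higher was 5 without the 2 libraries of fewer than 30 TRBV31 clonotypes and 1 to 5 with a mouse left out. It was 5 without β5t-KO 2, and 2 without WT 1, β5i-KO 2 or β5t-KO 1. Usage changed sign without passing the threshold. For β5t-KO minus WT the log2 fold change was 0.0417 with DESeq2, 0.11 by molecules and 0.11 by reads, and -0.212 to 0.0463 with a mouse left out, the sign turning without β5t-KO 4. For BIT minus β5t-KO it was -0.0175, -0.0658 and -0.0434 in the same order, and -0.0213 to 0.238 with a mouse left out, again turning without β5t-KO 4. For BIT minus WT it was -0.0176 to 0.0641 with a mouse left out, turning without WT 2. Mice of different groups were not paired by their number in the main tests. Of 22 same-numbered pairs 9 correlated above 0.1. The median r was 0.0651 for same-numbered and -0.0508 for other pairs, and 5 mice correlated best with their own number. Whether the numbers pair the mice was not tested. With the replicate number as a block, BIT minus WT usage was -0.0279, and the block called 1 of 23 TRBV genes, not TRBV31, in each of β5t-KO minus WT and BIT minus β5t-KO, and 6 of 248 V-J pairs in the latter, none with TRBV31. TRBV31 sequences called rose from 0 to 3, 5, 4, 1 and 7 with DESeq2 (β5i-KO, β5t-KO and BIT minus WT, then BIT minus β5i-KO and minus β5t-KO), and to 8 with TMM in the last, where TMM called 855 of all 1376 sequences. With a mouse left out they ranged from 0 to 1 for BIT minus WT (1 without β5i-KO 3, beside 185 of all 996, or BIT 2, beside 87 of all 1006), from 0 to 1 for BIT minus β5i-KO (1 without BIT 2, beside 74 of 1006) and from 0 to 7 for BIT minus β5t-KO (5 to 7 of 11 to 14 tested when a β5i-KO mouse was left out, beside 567 to 662 of 996 to 1239 of all, and 2 of 13 without BIT 2, beside 97 of 1006). The cause was not tested. Depth limits the values of β5t-KO 2, whose 9 TRBV31 clonotypes allow a usage of 1.24% to 4.39% (95% Wilson interval).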
